A study of Homo sapiens with 16 samples.

Results

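The 56 mitosis genes described here encode the kinases, cyclins, kinetochore proteins, spindle motors, cytokinesis proteins and chromosome proteins that carry cells through division, together with 2 transcription factors that drive them. They were listed by gene symbol, with earlier results of these data known, and the rule used no measured value. All 56 were among the 26229 listed genes, and all 56 were among the 14673 that were tested because their counts averaged more than 10 over the libraries.

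RNA-seq was carried out on 16 libraries from A431, a human epidermoid carcinoma line, and HaCaT, an immortalised human keratinocyte line, both grown in DMEM with serum. For each line there was 1 library with a control siRNA (siCTRL), 3 with siRNAs against YAP1 (siYAP), 1 with an empty expression vector and 3 with YAP5SA, a constitutively active YAP1 mutant that the labels call YAP1 S5A. The siRNA libraries carried no vector and the vector libraries no siRNA. The comparison of loss and gain of YAP asks which genes depend on this co-activator of the Hippo pathway in keratinocytes. The siRNA was given in 2 transfections 24 h apart and RNA was taken 48 h after the second, whereas the time after vector transfection is not given in the sources used here. Each control was a single library, so every contrast with a control rests on the spread within the 4 groups of 3 libraries.

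In mitosis, cyclin B with CDK1 starts chromosome condensation and spindle assembly, the spindle checkpoint holds anaphase until kinetochores are attached, and the anaphase-promoting complex then destroys cyclin B and securin so that sister chromatids part and the cell cleaves. Most genes for these proteins are transcribed in G2 and M phase under FOXM1, B-MYB (MYBL2) and the MuvB core, through promoter elements called the cell cycle genes homology region (CHR) and the CCAAT box. In skin, the keratinocytes that divide sit in the basal layer. In bulk RNA, fewer dividing cells and less mitotic RNA per cell cannot be told apart.

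Promoter sequence was examined because these genes are known for a shared element near their start sites. RefSeq promoters (GRCh38.p14, 250 bases before to 50 after the start) were matched for 48 of the 56 genes, and AURKA, TTK, BUB3, UBE2C, BIRC5, TPX2, RACGAP1 and FOXM1 are named only. The letters TTTGAA, the CHR, occurred on either strand in 34 of 48 (70.8%), against 18.2% of 27305 genes with a promoter and 13.8% of tested genes. CCAAT occurred in 77.1% of them against 39.7% of genes and 43.0% of tested genes. Both motifs occurred in 56.2% against 7.3% of genes and 5.8% of tested genes. GGAATG, the letters bound by TEAD, the DNA-binding partner of YAP, occurred in 16.7% of them and in 16.7% of all genes with a promoter. Among tested genes the share with GGAATG was 15.2%. TTCCCGC, an E2F-type site, occurred in 10.4% of them, against 7.8% of genes with a promoter and 12.4% of tested genes. A CHR lay before the start in 27 genes, at a median of 25 bases before it, and within 50 bases of it in 18. The windows of 30 bases below are a selection from genes that the results describe. Their elements lie between 8 (CDK1) and 26 bases (ESPL1) before the start. Elements farther away were left out, such as those of TOP2A at 146 and 189 bases and others of CDK1 at 64 and 156. Each is printed 5′ to 3′ on the gene's strand, with TTTGAA, or its reverse complement TTCAAA, in capitals.
CCNB2 (chr15:59105105-59105134, plus strand): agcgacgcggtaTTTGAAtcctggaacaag
CDK1 (chr10:60778453-60778482, plus strand): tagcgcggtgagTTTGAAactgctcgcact
PLK1 (chr16:23678848-23678877, plus strand): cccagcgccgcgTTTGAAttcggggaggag
BUB1B (chr15:40161034-40161063, plus strand): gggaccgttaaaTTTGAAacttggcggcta
ESPL1 (chr12:53268256-53268285, plus strand): cagccgcggataTTTGAAaggagggtctgg
CENPA (chr2:26786026-26786055, plus strand): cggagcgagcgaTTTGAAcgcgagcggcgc
PRC1 (chr15:90994538-90994567, minus strand): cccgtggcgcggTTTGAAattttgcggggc
KIF11 (chr10:92593090-92593119, plus strand): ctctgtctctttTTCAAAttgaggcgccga
MKI67 (chr10:128126435-128126464, minus strand): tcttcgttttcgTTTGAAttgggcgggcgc
A match of letters is a description and not a bound site, and the absence of a match says only that these letters are not in the window.

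Library totals ran from 18115624 to 46791673 estimated counts. The keratinocyte markers KRT5, KRT14, TP63, DSP and CDH1 were present in every library of both lines, and 12 markers of fibroblasts, endothelium and leukocytes summed to 7.04 to 35.8 CPM (counts scaled to library size with TMM factors, the unit of all levels below) in A431 and 1.70 to 59.5 in HaCaT. The endothelial cadherin CDH5 was the largest term of that sum in every siRNA library, at 12.1 to 51.8, and was at 0.13 to 2.43 in the vector libraries. The collagen COL1A1 was at 0.34 with siCTRL and 1.24 to 2.80 with siYAP in A431, and at 1.69 and 3.16 to 5.69 in HaCaT. LYZ reached 5.16, CD14 3.62 and PECAM1 1.68, and the other 7 markers, PDGFRA, COL1A2 and PTPRC among them, did not pass 0.378. The part of these markers in the results was not tested. YAP1 itself followed its labels. In A431 it was at 94.3 with siCTRL, 5.34, 6.999 and 5.04 with siYAP, 124 with empty vector and 1495, 3245 and 2940 with YAP5SA. In HaCaT it was at 254 with siCTRL, 23.2, 21.6 and 21.8 with siYAP, 423 with empty vector and 7549, 22255 and 10069 with YAP5SA.

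The mitosis genes differed widely between the 2 kinds of control. Their summed level was 5838 CPM in A431 siCTRL and 8625 in A431 empty vector, and 1950 in HaCaT siCTRL and 14498 in HaCaT empty vector. Every one of the 56 genes was higher in the empty vector library of both lines. The median fold was 1.51 in A431 and 8.72 in HaCaT, and 8 and 55 genes passed 2-fold, against 3.85% and 14.8% of all genes. In HaCaT 51 genes passed 4-fold (4.37% of all genes). Each side is 1 library, so the difference has no replicate of its own, and it was not tested. Here siRNA transfection, vector transfection and any difference in culture time or density cannot be told apart.

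The folds between the HaCaT controls were unequal. NCAPG, a condensin subunit, stood 22.1-fold higher in the empty vector library, NUF2, a kinetochore protein, 18.9-fold, CCNA2, the S and G2 phase cyclin, 17.5-fold and CDK1 15.1-fold. At the other end SPC25, a kinetochore subunit, stood 1.56-fold higher, BUB3, a checkpoint protein, 2.25-fold and the separase ESPL1 3.06-fold. The 39 DNA replication genes had a median fold of 4.82 and the 87 tested genes of the other mitosis list 3.08. In the same pair of libraries involucrin (IVL), a protein of the differentiating keratinocyte, was at 461 CPM with siCTRL and 175 with empty vector. The suprabasal keratins went the other way, KRT10 from 45.2 to 149 and KRT1 from 2.73 to 8.22. These genes were chosen after their values were seen, and their part in the difference was not tested.

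**Figure D1:**
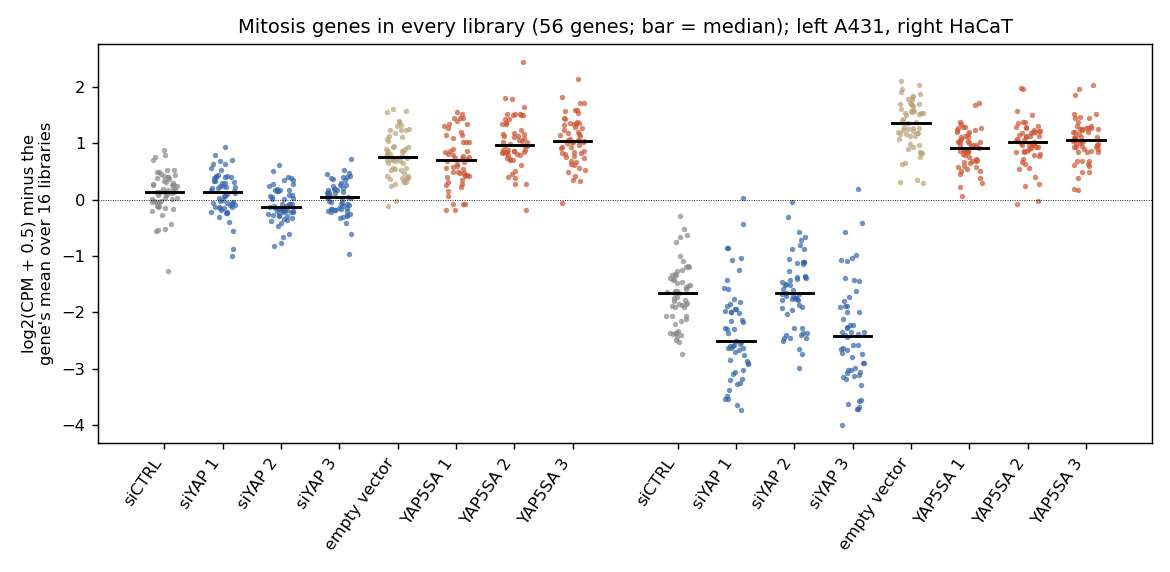
Level of each mitosis gene in every library, as log2(CPM + 0.5) minus the gene's mean over 16 libraries (points, 56 genes; bars, medians; grey siCTRL, blue siYAP, tan empty vector, red YAP5SA). The 4 HaCaT siRNA libraries, control included, lie lowest, with summed levels of 1368 to 2094 CPM, against 10318 to 14498 in the 4 HaCaT vector libraries.

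With YAP1 knocked down in A431, the mitosis genes lay near their control. None was called by the quasi-likelihood test of edgeR (a false discovery rate, FDR, under 0.05 over all tested genes and a logCPM above 1), where 3.78% of all genes were called lower and 1.81% higher. 6 of the 56 had an unadjusted p under 0.05 (10.7%, against 22.2% of all genes). DESeq2 called 2 lower, NCAPH and SMC4 (5.87% of all genes). Leaving out A431 YAP5SA replicate 1 gave 3 called lower by edgeR (5.72% of all genes), and leaving out HaCaT siYAP replicate 2 gave 1. The median log2 fold change was -0.08 over the 56 and 0.03 over all tested genes, and that of the 56 was -0.18 without siYAP replicate 1 and -0.0064 without siYAP replicate 2. The 3 siYAP libraries had median log2 ratios to siCTRL of 0.02, -0.24 and -0.11, and all 3 lay below the control in 21 genes (34.9% of all genes) and above it in 10 (37.4%). Of the DNA replication genes 22 of 39 were called lower in the same contrast and none higher, with a median of -0.89. RRM2, a subunit of ribonucleotide reductase, fell by 1.63 and MCM6, a subunit of the replicative helicase, by 1.58 on the log2 scale. Of the other mitosis list 12 of 87 fell and none rose, among them ZWINT, a kinetochore protein, by 1.33, the kinase MELK by 1.01 and the cohesin subunit SMC1A by 0.77. The difference between these lists and the 56 genes was not tested.

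In HaCaT, CENPA, KIF2C and BUB3 fell with siYAP and CDC25B rose. These were 3 genes called lower (3.3% of all genes) and 1 higher (2.37%), 17 of the 56 had an unadjusted p under 0.05 (30.4%, against 20.4% of all genes), and the median was -0.47 against 0.03 over all genes. CENPA, the histone H3 variant of centromeres, was at 3.77 CPM with siCTRL and at 1.28, 1.90 and 1.49 with siYAP. All 3 siYAP values lay below the control, and the log2 fold change was -1.29 ± 0.25 (SE; edgeR FDR = 0.0107). KIF2C, the kinesin that takes microtubules apart at centromeres, was at 10.5 with siCTRL and 3.79, 6.71 and 3.87 with siYAP. Its log2 fold change was -1.16 ± 0.28 (edgeR FDR = 0.0259), and again no library overlapped the control. With the line fitted alone its call was lost (edgeR FDR = 0.0892). BUB3, which carries checkpoint proteins to unattached kinetochores, was at 143 with siCTRL and 99.5, 111 and 97.6 with siYAP (log2 fold change -0.47 ± 0.13, edgeR FDR = 0.0435). This call lay close to the threshold and was lost with RLE size factors (FDR = 0.0538), with no count filter (FDR = 0.0711) and with the line fitted alone (FDR = 0.14). It was also lost without any 1 of the 3 A431 siYAP libraries, A431 YAP5SA replicate 2 or 3, HaCaT siYAP replicate 1 or 3, or HaCaT YAP5SA replicate 3. CDC25B, a phosphatase that activates CDK1, went the other way, from 20.5 to 33.2, 48.8 and 40.6 (log2 fold change 0.99 ± 0.24, edgeR FDR = 0.0292). Its call too was lost with the line fitted alone (edgeR FDR = 0.117). That fit called CENPA alone of the 56.

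The 3 HaCaT siYAP libraries differed among themselves in the mitosis genes. Replicate 2 held the highest value of the 3 in 54 of the 56 genes, against 40% of all genes. The median log2 ratio to siCTRL was -0.77 in replicate 1, -0.01 in replicate 2 and -0.73 in replicate 3. The median SD between the 3 libraries was 0.49 on the log2 scale for the 56 genes and 0.15 for all genes. YAP1 was as low in replicate 2 as in the others. CDK1, for example, was at 23.7 with siCTRL and 12.8, 23.7 and 9.32 with siYAP, and TOP2A, the topoisomerase that untangles sister chromatids, at 133 and 70.2, 136 and 66.3, so that replicate 2 sat at the control in both. All 3 siYAP libraries lay below the control in 26 genes (33.4% of all genes) and above it in 4 (36.3%). CCNB1, the mitotic cyclin, was at 46.3 with siCTRL and 21.3, 40.7 and 22.2 with siYAP. Without replicate 2, which leaves 2 siYAP libraries, 25 genes were called lower in HaCaT and none higher, and the median was -0.76. The share of all genes called in that fit is not given here, and leaving out a library changes the estimated spread of every gene. Leaving out replicate 1 or replicate 3 gave 1 called lower, since BUB3 and KIF2C were then not called, and CDC25B was no longer called without replicate 2 or replicate 3. With siCTRL and empty vector taken as 2 controls instead, 53 were called lower (15% of all genes) and the median was -2.84.

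**Figure D2:**
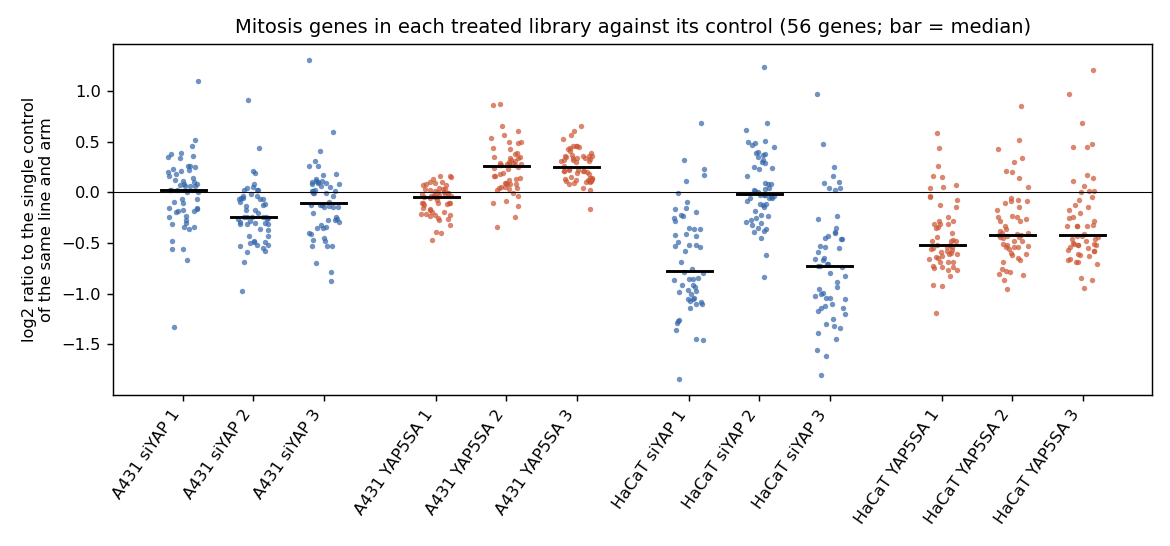
Log2 ratio of each mitosis gene to the single control of the same line and arm in the 12 treated libraries (points, 56 genes; bars, medians). HaCaT siYAP replicate 2 has a median of -0.01 where replicates 1 and 3 have -0.77 and -0.73, and the 3 HaCaT YAP5SA libraries lie between -0.52 and -0.42.

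Over both lines, 6 of the 56 genes fell with siYAP and 1 rose (7.68% and 5.3% of all genes), with a median of -0.28. The genes that fell were BUB3, CENPA, KIF2C, NCAPH, PRC1 and MAD2L1, and CDC25B rose. NCAPH, a condensin subunit, was at 45.4 with siCTRL and 28.4, 27.9 and 26.1 with siYAP in A431, and at 4.97 and 3.25, 5.00 and 2.84 in HaCaT. A431 libraries were tight and below the control, while HaCaT replicate 2 matched it, and the log2 fold change was -0.59 ± 0.17 (edgeR FDR = 0.0381). PRC1, which bundles the central spindle, was at 164 and 129, 116 and 117 in A431, and at 52.9 and 26.9, 44.4 and 25.8 in HaCaT, below the control in all 6 libraries (log2 fold change -0.58 ± 0.16, edgeR FDR = 0.0338). MAD2L1, the checkpoint inhibitor of CDC20, was at 89.7 and 69.6, 73.7 and 71.7 in A431, and at 9.89 and 4.53, 7.82 and 5.49 in HaCaT (-0.53 ± 0.14, edgeR FDR = 0.0273). It falls outside the rule for named genes and is given because it was called. Without HaCaT siYAP replicate 2 the median was -0.43 and 27 genes were called lower. The share of all genes for that fit is not given here. BUB3 and CENPA were called whichever library was left out. They were the only 2 called lower without replicate 3 of siYAP in either line, and MAD2L1 joined them without A431 siYAP replicate 2 or HaCaT siYAP replicate 1. The call of NCAPH was also lost without A431 siYAP replicate 1, that of KIF2C without HaCaT YAP5SA replicate 3, and both without A431 YAP5SA replicate 3. The call of CDC25B was lost without A431 siYAP replicate 1 or 3, A431 YAP5SA replicate 3, or HaCaT siYAP replicate 2 or 3. Of the other mitosis list 21 of 87 fell and 1 rose, and of the DNA replication genes 23 of 39 fell and none rose. LIN52, a subunit of the MuvB core, fell by 1.04 and the phosphatase CDC25A by 1.07 on the log2 scale over both lines. With siYAP in HaCaT alone, PRIM1 and RPA2 were the only DNA replication genes called, both lower. Of the other mitosis list CDC23, CDC25A, CDC27 and LIN52 were called lower there and CENPQ higher.

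Several well-known members were not called with siYAP over both lines. MYBL2 had the largest fitted difference of the 56 genes, at 48.7 and 19.1, 24.6 and 26.3 in A431 and at 4.86 and 2.09, 3.84 and 1.32 in HaCaT, below the control in all 6 libraries, and its log2 fold change was -1.06 ± 0.36 with an edgeR FDR of 0.068. FOXM1 was at 48.6 and 41.4, 39.0 and 39.7 in A431, but in HaCaT at 12.02 and 6.78, 15.9 and 7.04, so the HaCaT libraries lay on either side of the control. PLK1, the kinase that drives centrosome maturation, was at 27.0 and 29.9, 25.3 and 26.9 in A431 and at 4.75 and 3.41, 6.66 and 3.34 in HaCaT, and overlapped its control in both lines. AURKA, the spindle pole kinase, was at 117 and 140, 116 and 116 in A431 and at 26.6 and 19.8, 28.4 and 15.9 in HaCaT. The passenger complex kinase AURKB was at 19.4 and 17.4, 16.4 and 20.9 in A431 and at 5.19 and 1.86, 4.33 and 1.98 in HaCaT, with a log2 fold change over both lines of -0.53 ± 0.24 (edgeR FDR = 0.163). Its partner BIRC5 (survivin) was at 61.8 and 54.5, 49.7 and 52.0 in A431 and at 7.37 and 3.06, 7.63 and 3.11 in HaCaT (edgeR FDR over both lines = 0.229), and the complex's borealin subunit CDCA8 at 44.9 and 48.7, 37.9 and 40.6 in A431 and at 7.05 and 2.25, 5.25 and 3.40 in HaCaT (edgeR FDR over both lines = 0.136). Of AURKB, BIRC5 and CDCA8, BIRC5 alone lay below the control in all 3 A431 libraries. UBE2C, the ubiquitin-conjugating enzyme of the anaphase-promoting complex, was at 81.7 and 96.2, 78.5 and 84.6 in A431 and at 13.9 and 6.27, 11.2 and 4.76 in HaCaT (edgeR FDR over both lines = 0.217), and the centrosome kinase NEK2 at 64.6 and 74.3, 52.0 and 59.1 in A431 and at 12.02 and 6.43, 9.09 and 4.30 in HaCaT (edgeR FDR over both lines = 0.13). Both overlapped the control in A431 and lay below it in HaCaT. MKI67, the proliferation antigen, was at 167 and 200, 119 and 180 in A431 and at 87.7 and 68.3, 110 and 74.6 in HaCaT, and overlapped its control in both. By edgeR no difference in the siYAP effect between the lines was called among the 56 genes (0.123% of all genes lower, 0.0477% higher). 7 stood at an unadjusted p under 0.05 (12.5%, against 11.5% of all genes). DESeq2 called 1 higher in A431, CENPA (0.797% of all genes). The median difference was 0.36. Leaving out HaCaT siYAP replicate 2 gave a median of 0.65 and 2 genes called higher in A431, and leaving out HaCaT siYAP replicate 3 a median of 0.21.

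YAP5SA in A431 gave no call among the mitosis genes, as among all genes (0% lower and 0% higher by edgeR). No member had an unadjusted p under 0.05, against 5.64% of all genes, and DESeq2 called none of them. The fitted log2 fold changes were nevertheless above 0 in 48 of the 56 genes, with a median of 0.15 against 0.02 over all genes. That median was 0.26 without replicate 1 and 0.09 without replicate 3. All 3 libraries lay above the empty vector in 14 genes (28.9% of all genes) and below it in none (24.5%). Replicate 1 was the lowest of the 3 in 47 genes, and the medians by library were -0.05, 0.26 and 0.25. PLK1 was at 37.3 with empty vector and 37.1, 68.0 and 58.9 with YAP5SA, MYBL2 at 85.5 and 73.3, 157 and 127, and FOXM1 at 83.6 and 81.7, 128 and 115. In all of these replicate 1 sat at or under the control and the others above it. CCNB1, at 247 and 243, 315 and 316, showed the same order, whereas CDK1 was at 319 and 337, 325 and 350, above the control in every library.

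YAP5SA in HaCaT went with lower levels of KIF20B, NDC80 and KIF11. These 3 of 56 genes were called lower and none higher (6.64% and 6.99% of all genes), 19 of the 56 had an unadjusted p under 0.05 (33.9%, against 31.8% of all genes), and the median was -0.45 against 0.01 over all genes. All 3 libraries lay below the empty vector in 42 genes (33.9% of all genes) and above it in 6 (32.1%). KIF20B, a cytokinesis kinesin, was at 351 with empty vector and 225, 205 and 217 with YAP5SA. The YAP5SA libraries were close together and well below the control, and the log2 fold change was -0.70 ± 0.15 (edgeR FDR = 0.0114). This call was lost with the line fitted alone (edgeR FDR = 0.052). NDC80, which couples kinetochores to microtubules, was at 78.5 and 41.3, 42.9 and 40.5 (-0.92 ± 0.20, edgeR FDR = 0.0118). KIF11, the motor that separates the spindle poles, was at 439 and 248, 249 and 286 (-0.75 ± 0.21, edgeR FDR = 0.0352). With the line fitted alone its call was lost (edgeR FDR = 0.069) and only that of NDC80 remained. The KIF11 call was also lost without any 1 of the A431 siYAP libraries or without HaCaT YAP5SA replicate 2 or 3. Its promoter element is printed above. The single HaCaT empty vector library, the reference for these calls, had the highest summed level of all 16 libraries. With siCTRL added as a second control none was called lower and 1 higher (8.23% and 4.77% of all genes). The median then turned to 0.37. Libraries outside this comparison enter through the normalisation and the shared estimate of the spread. Leaving out A431 YAP5SA replicate 1 gave 7 called lower and 1 higher (9.02% and 8.63% of all genes). Leaving out HaCaT siYAP replicate 2 gave 16 lower, and leaving out both libraries gave 26 lower and 1 higher. The share of all genes is not given here for the fits without HaCaT siYAP replicate 2.

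The remaining roles in HaCaT with YAP5SA followed the same side, with a few exceptions. All 7 entry genes, all 7 kinetochore genes, all 10 spindle genes, all 7 chromosome structure genes and all 4 checkpoint genes had fitted values below 0. CCNB1 was at 407 with empty vector and 243, 291 and 290 with YAP5SA, CDK1 at 364 and 276, 269 and 255, and CCNA2 at 216 and 143, 141 and 150. TOP2A was at 1227 and 803, 760 and 828, the condensin subunit SMC2 at 557 and 334, 388 and 404, the checkpoint kinase BUB1B at 211 and 142, 158 and 155, and the phosphatase CDC25C at 25.9 and 15.9, 17.7 and 17.1. For each of these the 3 libraries lay under the control by a margin wider than their own range, and none passed the edgeR threshold (FDR from 0.0821 for SMC2 to 0.327 for CDK1). The exceptions were above the control. MYBL2 was at 51.0 and 69.2, 64.9 and 119 (0.72 ± 0.46, edgeR FDR = 0.304), ESPL1 at 24.6 and 37.1, 44.9 and 48.6 (0.82 ± 0.32, edgeR FDR = 0.0938), and FOXM1 at 75.8 and 90.6, 87.7 and 122. PLK1 was at 43.3 and 48.3, 58.4 and 59.2, and AURKB at 40.9 and 45.6, 50.4 and 55.9. CDC20 was at 124 and 129, 178 and 173. In each of these 6 genes all 3 YAP5SA libraries lay above the empty vector, and none was called by edgeR, while DESeq2 called ESPL1 higher (adjusted p = 0.0435). ESPL1 was also called by edgeR without A431 YAP5SA replicate 1 (FDR = 0.0398). The cytokinesis genes KIF23, at 296 and 281, 340 and 309, and ANLN, at 950.4 and 859, 1047 and 1052, had fitted values just above 0 and overlapped the control. The DNA replication genes in this contrast had 1 of 39 called lower, none higher, and a median of -0.00, and the other mitosis list 9 of 87 lower and 3 higher.

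**Figure D3:**
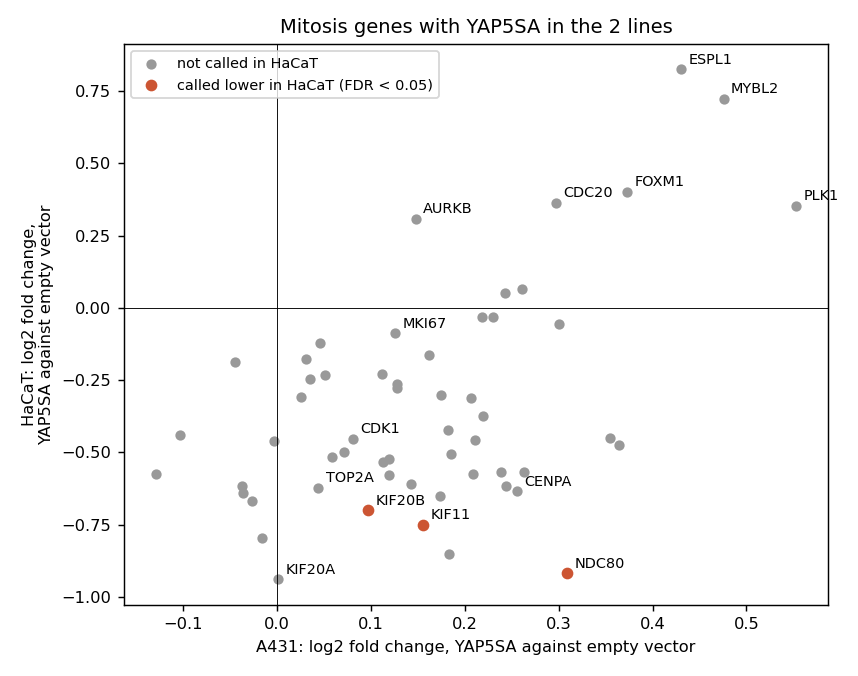
Fitted log2 fold change of the 56 mitosis genes with YAP5SA against empty vector in A431 (horizontal) and HaCaT (vertical), with the 3 genes called lower in HaCaT by edgeR in red. Most genes lie right of 0 and below 0, with medians of 0.15 and -0.45, and MYBL2, ESPL1, FOXM1, PLK1, AURKB and CDC20 lie above 0 in both lines.

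The difference in the YAP5SA effect between the lines pointed one way for most of the genes but was called for none. It was positive, meaning higher in A431, in 51 of the 56, with a median of 0.55 against 0.02 over all genes, where 0.0682% of all genes were called lower and 0.0204% higher by edgeR. 10 of the 56 (17.9%) had an unadjusted p under 0.05, as had 22.4% of all genes. DESeq2 called 2 higher in A431, KIF20B and NDC80 (2.81% of all genes). NDC80 had the lowest FDR, with a difference of 1.23 ± 0.29 (edgeR FDR = 0.0624), from A431 values of 68.8 with empty vector and 66.3, 96.3 and 93.0 with YAP5SA beside the HaCaT values above. KIF20B followed with 0.80 ± 0.22 (edgeR FDR = 0.0778), from A431 values of 207 and 205, 221 and 238. KIF11 differed by 0.90 ± 0.32 (edgeR FDR = 0.13), SMC2 by 0.83 ± 0.31 (edgeR FDR = 0.145) and BUB1B by 0.84 ± 0.35 (edgeR FDR = 0.184). The 2 transcription factors were among the 5 genes with a negative difference, MYBL2 at -0.25 ± 0.63 and FOXM1 at -0.03 ± 0.52. The anaphase genes were split, 2 on each side, and INCENP, the scaffold of the passenger complex, differed by 0.28 ± 0.39 (edgeR FDR = 0.7). No gene had all 3 YAP5SA libraries above the empty vector in both lines, as 8.89% of all genes had. Without A431 YAP5SA replicate 1, 5 genes were called higher in A431 (3.26% of all genes), and the median was 0.56.

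**Figure D4:**
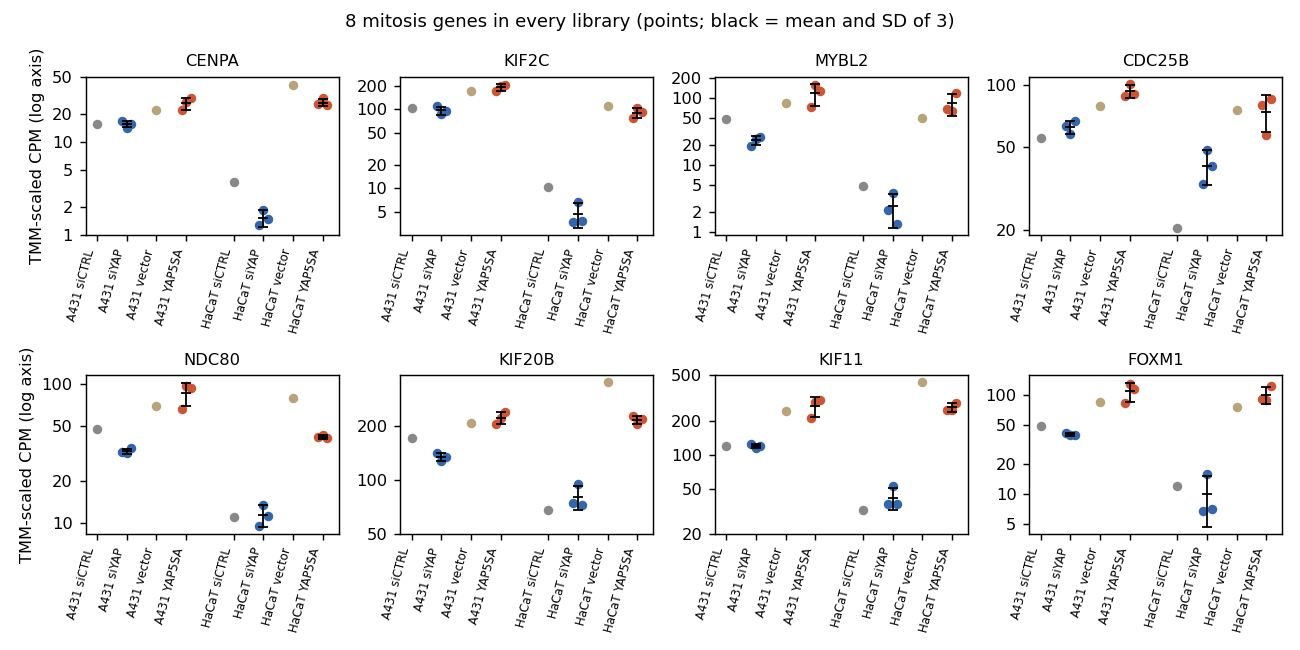
TMM-scaled CPM (log axis) of 8 mitosis genes in every library, with points for libraries and black marks for the mean and SD of the groups of 3. All 8 genes are lower in all 4 HaCaT siRNA libraries than in any of the 4 HaCaT vector libraries. NDC80, KIF20B and KIF11 are lower with YAP5SA than with empty vector in HaCaT.

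Set directly against each other, YAP5SA and siYAP libraries differed in nearly all of the genes. In A431 49 of 56 were higher with YAP5SA and none lower (20% and 14.6% of all genes by edgeR), with a median log2 difference of 0.92, and all 3 YAP5SA libraries lay above all 3 siYAP libraries in 50 (26.9% of all genes). MYBL2 differed by 2.36 ± 0.33 (edgeR FDR = 0.000169), NCAPG by 1.45 ± 0.21 (edgeR FDR = 0.000215) and FOXM1 by 1.44 ± 0.27 (edgeR FDR = 0.0012). In HaCaT 55 of 56 were higher and none lower (31.5% and 28.5%), with a median of 3.24, and all but SPC25 had no overlap between the groups (34.3% of all genes). MYBL2 differed by 5.17 ± 0.40 (edgeR FDR = 1.54e-07) and CDC20, the activator of the anaphase-promoting complex, by 4.49 ± 0.29 (edgeR FDR = 2.89e-08). The HaCaT difference was larger than that of A431 in 52 of the 56 genes by the test of the difference (21.3% of all genes on that side and 18.9% on the other, edgeR), with a median of -2.43 for A431 minus HaCaT. NDC80, CDC25B, SPC24 and SPC25 were the 4 not called.

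This direct comparison differs in the kind of transfection as well as in YAP, and the median log2 difference between the controls themselves was 0.59 in A431 and 3.12 in HaCaT. With each arm first set against its own control, an alternative added after the data were seen, no gene was called in A431 (median 0.24), and in HaCaT CKAP2, a spindle protein, KIF11 and KIF20B were lower and none higher (median -0.02). The difference between the lines then had KIF20B and NDC80 higher in A431, none lower, and a median of 0.17. The share of all genes called in these own-control contrasts is not given here, so the counts have no background beside them. The direct calls and the calls against own controls share the same treated libraries, so neither is separate evidence for the other.

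Fitted values were also set beside the presence of a CHR in the promoter window. With siYAP over both lines the median log2 fold change was -0.24 in the 34 genes with the element and -0.11 in the 14 without it. It was -0.38 in the 8 genes with no matched promoter. With and without the element, the siYAP medians were -0.09 and -0.02 in A431 and -0.44 and -0.46 in HaCaT. Between the HaCaT controls, empty vector over siCTRL, they were 3.11 and 3.16. With YAP5SA in HaCaT the medians were -0.51 and -0.37, and in A431 0.16 and 0.12. These are descriptions of small groups with no test. KIF4A and PTTG1 have near-identical copies elsewhere in the genome, so their estimated counts depend on how reads were shared among copies.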

How the data were processed

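The authors deposited 1 table of estimated counts per gene for 16 libraries, made by RSEM from reads trimmed and mapped to RefSeq gene models; the submitters' processing notes name RSEM 1.2.11, edgeR and hg19, while the study's methods give another RSEM version. The estimated counts are unscaled and 82.3% were whole before rounding. Every library column was used. The study's methods describe biological triplicates, whereas the labels say that controls were not replicated and do not tie the libraries of a group to separate cultures, so p-values measure the spread between these libraries, of whichever kind it is.

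After rounding of the estimated counts, the quasi-likelihood test of edgeR 4.0.16 (R 4.3.3, limma 3.58.1) was fitted in 1 model of 8 groups, with TMM factors and the prior count set to 0.125. It left 8 residual degrees of freedom, at a common biological coefficient of variation of 0.174. Genes with a mean above 10 counts were tested. The SE is the log2 fold change divided by the square root of the F statistic. DESeq2 1.42.0 was an alternative, and Python 3.11.15 with pandas 2.3.3 and matplotlib 3.10.9 was used for promoters and figures. A count of 3, taken as the floor, equals 0.0641 to 0.166 CPM. Replicates all differed beyond sampling noise (chi-square per degree of freedom 6.75 or more).

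The 56 genes and the lists of other mitosis genes (88, of which CCNB3 was not tested) and DNA replication genes (39) were chosen with earlier results of these data known, including the difference between the lines with YAP5SA. Named genes are 10 well-known members and, in each role, the member with the lowest p with siYAP over both lines, with YAP5SA in HaCaT and in the YAP5SA line difference. Genes called or lying outside the direction of most members are added as exceptions, and the genes at the ends of a range were chosen after their values were seen.

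Replicate numbers are shared between the siYAP and YAP5SA groups, but the same-number correlations of deviations ran from -0.00341 to 0.0726, so the main fit has no block. The tests were first run on simulated data with known answers. At an FDR under 0.05, 2-fold changes were recovered in 32.8% of cases with siYAP in A431, 29.9% in HaCaT and 53.7% over both lines. For 1.41-fold changes the shares were 3%, 1.5% and 10.4%, and for 4-fold changes 80.3%, 75.8% and 87.9%. No change was put into the YAP5SA libraries, so recovery in their contrasts was not measured. A gene that was not called is not shown to be unchanged.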

Additional observations from a re-analysis of the deposited data

Results flagged for a closer look

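The difference between YAP5SA and siYAP was unequal in the 2 lines by the test of that difference, which called 52 of the 56 genes, all with the larger difference in HaCaT (edgeR). With each arm against its own single control, 0 were called on that side and 2 on the other. No share of all genes is given here for that contrast.

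In 13 genes all 3 A431 YAP5SA libraries lay above the empty vector and all 3 HaCaT YAP5SA libraries below it, as in 10.4% of all genes. The fitted log2 difference, A431 minus HaCaT, was 0.53 for CDK1, 0.59 for AURKA, 0.57 for TTK, 0.57 for NEK2, 0.84 for BUB1B, 0.34 for BUB3 and 0.32 for MAD2L1. It was 0.48 for UBE2C, 0.89 for CENPA, 0.70 for NUF2, 0.41 for ECT2, 0.67 for RACGAP1 and 0.35 for NCAPH. None of these differences was called by edgeR (lowest FDR 0.12, for CENPA), and no gene showed the reverse pattern or lay above the empty vector in all 6 libraries.

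With siYAP, TTK and CDC20 lay above siCTRL in every A431 library and below it in every HaCaT library, with differences of 0.84 and 0.91, and KIF20B the other way, with -0.58. None was called by edgeR (lowest FDR 0.331). Of all genes 37.4% lay above siCTRL in every A431 siYAP library and 33.4% below it in every HaCaT siYAP library. For the reverse sides the shares were 34.9% and 36.3%. The share of all genes with both at once is not given here.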

How the results depend on the processing

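Under the alternatives 214 of 258 summary values outside the leave-one-out fits kept their side and stayed close. Of the named genes 249 of 294 values did. For genes called lower, DESeq2 gave 2 with siYAP in A431, 9 with siYAP in HaCaT and 5 with YAP5SA in HaCaT, with 1 called higher in the last. Of all genes it called 5.87%, 4.95% and 8.65% lower in these contrasts, and 10.3% higher in the last. It gave 1 called higher in the siYAP line difference and 2 in the YAP5SA line difference (0.797% and 2.81% of all genes). The likelihood ratio test gave 1, 9 and 6 lower (5.57%, 4.78% and 8.44% of all genes). It gave 2 higher in the YAP5SA line difference (2.05%). Each line fitted alone gave 1, 1 and 1 lower (4.36%, 1.46% and 1.7%) and 0 higher with siYAP in HaCaT (0.953%).

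With siCTRL and empty vector as 2 controls the medians were -0.46 (siYAP, A431), -2.84 (siYAP, HaCaT), -1.65 (both lines), 0.45 (YAP5SA, A431), 0.37 (YAP5SA, HaCaT, turned), 2.38 (siYAP line difference) and -0.026 (YAP5SA line difference, turned). The calls lower were 53 with siYAP in HaCaT and 51 over both lines, with 0 higher, and 0 lower and 1 higher with YAP5SA in HaCaT. Of all genes 15%, 13.9% and 8.23% were called lower in these contrasts, and 4.77% higher in the last. Genes that turned were CDC25B with siYAP (-0.24 in HaCaT, -0.18 over both lines), KIF11 (0.15), KIF20B (0.042), SMC2 (0.20), CDC25C (0.24), NEK2 (0.34) and BUB1B (0.39) with YAP5SA in HaCaT, and UBE2C (-0.0035), INCENP (-0.067) and AURKA (-0.026) in the line difference. The construction mixes 2 kinds of transfection.

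Leaving out 1 library at a time gave 0 to 3 genes lower with siYAP in A431, 1 to 25 lower and 0 to 1 higher in HaCaT, 2 to 27 lower and 0 to 1 higher over both lines, 2 to 16 lower and 0 to 1 higher with YAP5SA in HaCaT, 0 to 2 in the siYAP line difference and 0 to 5 in the YAP5SA line difference. MYBL2 ran from -0.49 to 0.083 in the YAP5SA line difference and turned without A431 YAP5SA replicate 1 (0.0061) and without HaCaT YAP5SA replicate 3 (0.083). The share of all genes called moved too. With siYAP in A431, 2.12% of all genes were called lower without siYAP replicate 1 and 5.72% without A431 YAP5SA replicate 1. The single control libraries cannot be left out. Without HaCaT siYAP replicate 2 and A431 YAP5SA replicate 1 together, chosen after seeing the data, 4, 30 and 30 were lower with siYAP in A431, HaCaT and both lines (0 higher), 26 lower and 1 higher with YAP5SA in HaCaT, 4 higher in the siYAP and 16 in the YAP5SA line difference. The share of all genes called in that fit is not given here.

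With each arm against its own control, the direct comparison of YAP5SA with siYAP called 0 higher in A431 (median 0.24), 3 lower and 0 higher in HaCaT (-0.018, turned) and 0 lower and 2 higher in the line difference (0.17, turned). The share of all genes called there is not given here. The replicate block gave 50, 55 and 53 calls in these comparisons (20.5%, 31.5% and 21.7% of all genes on the same side). No sample but HaCaT 2 matched its own number best. The cause of these changes was not tested.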
